A study of Homo sapiens with 4 samples.

Results

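The enzymes that make serine and pass its one-carbon units to folate were examined in BICR10, a line of human cells from a head and neck cancer, with and without silencing of YEATS2. The set was fixed by gene symbol and holds 9 of the 60623 genes in the count files: PHGDH, PSAT1 and PSPH of serine synthesis, SHMT1 and MTHFD1 of the cytosolic folate pathway, and SHMT2, MTHFD2, MTHFD1L and ALDH1L2 of the mitochondrial folate pathway. The enzymes were chosen with earlier results of these data known. All 9 passed the filter on low counts.

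YEATS2 is a reader of acylated histones, and the comparison asked which mRNAs change when it is depleted. BICR10 cells received a lentivirus carrying either a control hairpin (shControl, 2 libraries) or a hairpin against YEATS2 (shYEATS2, 2 libraries) and were selected with puromycin, so both groups had been transduced and selected. Which of the YEATS2 hairpins a given shYEATS2 library carried is not given in the sources used here. Nothing in the labels says that the libraries of a group came from separate cultures, so the p-values measure the spread between these libraries, which may be technical.

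Serine is built from the glycolytic intermediate 3-phosphoglycerate by PHGDH, PSAT1 and PSPH in turn. Serine hydroxymethyltransferases then split serine into glycine and a one-carbon unit bound to tetrahydrofolate, SHMT1 in the cytosol and SHMT2 in mitochondria. In mitochondria the unit is oxidized by MTHFD2 and released as formate by MTHFD1L, or burnt to carbon dioxide by ALDH1L2 with production of NADPH. The trifunctional cytosolic enzyme MTHFD1 takes up the formate and returns it to folate, from where it serves purine, thymidylate and methionine synthesis. Proliferating and tumor cells commonly run the mitochondrial branch forward, and the amino-acid response factor ATF4 is a known activator of many of these genes.

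The libraries held 47297970 and 39824898 counts on genes in shControl and 24072396 and 11334133 in shYEATS2. The shYEATS2 libraries were the shallower pair, and this cannot be told apart from the condition. YEATS2 itself measured 66.1 and 66.7 CPM (counts scaled to a common library size with TMM factors) in shControl 1 and 2, and 29.2 and 29.1 CPM in shYEATS2 1 and 2. Its log2 fold change was −1.19 (SE 0.08, adjusted p = 3.6e-21, edgeR's quasi-likelihood test). Of the squamous epithelial markers, KRT17 and TP63 were under 0.4 CPM in every library. At an adjusted p under 0.05 (edgeR), 5 of the 8 tested were lower and 1 higher, against 23.6% and 22.6% of all tested genes. The 10 markers summed to between 212 and 213 CPM in shControl and between 137 and 146 CPM in shYEATS2. Most of that sum was SFN, which measured 130 CPM in both shControl libraries and 136 and 126 CPM in shYEATS2 and was not called. KRT6A fell from 55.0 and 58.2 CPM in shControl to 1.38 and 2.21 CPM in shYEATS2. CDH1 was the gene called higher, from 0.35 and 0.32 CPM in shControl to 2.84 and 2.12 CPM in shYEATS2. The 10 fibroblast markers summed to between 8804 and 8853 CPM in shControl and between 3939 and 4213 CPM in shYEATS2. Of the 9 tested, 7 were lower, among them COL3A1 (log2 fold change −2.14, SE 0.06), and 1, VIM, was higher (0.18, SE 0.06). The 8 leukocyte and endothelial markers summed to at most 3.65 CPM in any library, and CD3E was at 0 in all of them. In bulk RNA, fewer cells of a type and less RNA per cell cannot be told apart, and the part of these markers in the results below was not tested.

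Promoter sequence from RefSeq (GRCh38.p14), from 250 bases before to 50 bases after a transcript start, was read for 6 of the 9 genes (9 windows), PHGDH, PSAT1, SHMT1, MTHFD1, MTHFD2 and MTHFD1L, and PSPH, SHMT2 and ALDH1L2 had no entry. The 250 bases before the start are shown for 4 genes, 5′ to 3′ on the strand of the gene, because they span the range of responses described here: PSAT1 and MTHFD2 had the 2 largest rises of the set, PHGDH was not called and SHMT1 fell. Each start is one annotated by RefSeq. For PHGDH and MTHFD2 it lies well inside the GENCODE gene span printed below, and bases upstream of that span were not read. Capitals mark the CCAAT box, known to be bound by the factor NF-Y, on either strand (CCAAT or ATTGG).
PSAT1 (chr9:78296875-78297124, plus strand): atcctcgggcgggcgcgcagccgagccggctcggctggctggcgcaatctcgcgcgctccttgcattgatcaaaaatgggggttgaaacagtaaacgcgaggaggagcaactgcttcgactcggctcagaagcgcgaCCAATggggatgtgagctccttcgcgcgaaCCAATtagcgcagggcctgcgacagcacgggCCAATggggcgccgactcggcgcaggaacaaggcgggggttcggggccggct
MTHFD2 (chr2:74198365-74198614, plus strand): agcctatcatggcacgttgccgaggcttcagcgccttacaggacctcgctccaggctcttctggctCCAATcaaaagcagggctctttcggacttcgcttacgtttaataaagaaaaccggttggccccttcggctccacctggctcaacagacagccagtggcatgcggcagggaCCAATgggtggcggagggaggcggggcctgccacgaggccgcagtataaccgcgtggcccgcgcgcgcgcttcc
PHGDH (chr1:119711684-119711933, plus strand): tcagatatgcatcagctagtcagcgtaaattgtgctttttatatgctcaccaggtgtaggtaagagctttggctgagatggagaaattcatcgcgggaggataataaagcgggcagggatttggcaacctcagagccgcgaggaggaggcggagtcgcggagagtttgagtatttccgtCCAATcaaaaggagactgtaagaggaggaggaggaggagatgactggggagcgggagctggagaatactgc
SHMT1 (chr17:18363551-18363800, minus strand): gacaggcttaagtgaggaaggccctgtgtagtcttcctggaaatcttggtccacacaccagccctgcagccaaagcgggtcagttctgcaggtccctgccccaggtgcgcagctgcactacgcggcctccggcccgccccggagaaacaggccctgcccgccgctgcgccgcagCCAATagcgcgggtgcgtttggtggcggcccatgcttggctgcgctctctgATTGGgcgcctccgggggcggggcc
The stretch of PSAT1 holds 3 CCAAT boxes, beginning 113, 83 and 52 bases before the start, and that of MTHFD2 holds 2, at 184 and 74 bases. PHGDH has 1 at 71 bases, and SHMT1 has 2, at 76 and 25 bases, the latter on the opposite strand. The box was therefore present in the genes that rose, in the one that fell and in the one not called. All 6 genes with a window held it, against 39.7% of the 27305 genes in the RefSeq promoter table. CACGTG, the E-box that MYC can bind, was found for MTHFD1 and MTHFD1L, against 8.77% of genes. TGATGNAA, a core of the composite element bound by ATF4 with a C/EBP partner, was found for MTHFD1L, against 4.46% of genes. Of the 4 windows of MTHFD1L, 3 overlap one another, so their matches are not separate sites. The other window of MTHFD1L held none of the 3 motifs. Both strands were searched, none of the 3 motifs contains another, and a match describes these bases only.

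Across the 9 enzymes, 6 rose and 2 fell on silencing of YEATS2, and 1, PHGDH, did not pass the test (edgeR, adjusted p under 0.05). Over all 17058 tested genes 22.6% were called higher and 23.6% lower. Because the enzymes were chosen with earlier results of these data known, these shares are a background and not a test of the set. DESeq2 also called 6 higher and 2 lower, against 16.5% and 17.3% of all tested genes. By their levels alone, both shYEATS2 libraries lay above both shControl libraries for 6 genes and below them for 3, where 35.3% and 36.3% of all tested genes were separated in these directions. The median log2 fold change was 0.52 over the 9 genes and −0.01 over all tested genes.

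**Figure D1:**
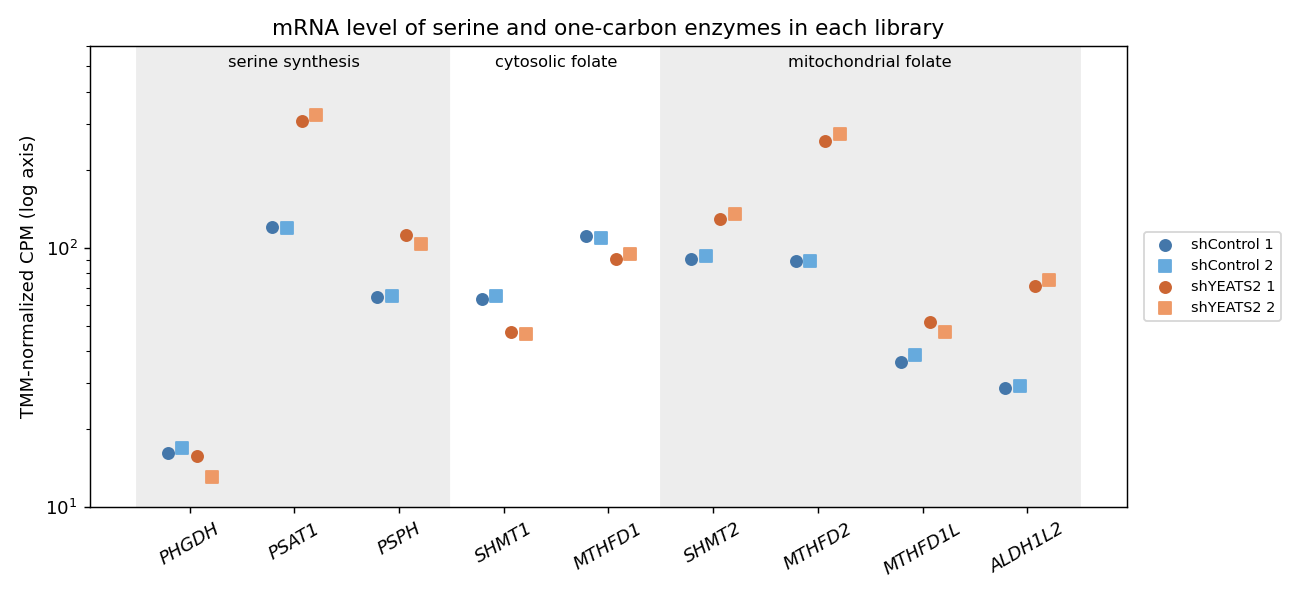
TMM-normalized CPM of the 9 enzymes (log axis) in the 4 libraries, with circles for library 1 and squares for library 2 of each group and shading for the 3 groups of enzymes. PSAT1 lies near 119 CPM in both shControl libraries and above 309 CPM in both shYEATS2 libraries, and the libraries of the 2 conditions do not overlap for any of the 9 genes, though for PHGDH the gap is narrow (16.2 against 15.7 CPM).

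Within serine synthesis, PSAT1 and PSPH rose and PHGDH, the entry enzyme, did not pass the test. PSAT1 (ENSG00000135069, chr9:78297125-78330093, plus strand), the aminotransferase that turns 3-phosphohydroxypyruvate into phosphoserine, measured 119.9 and 119.4 CPM in shControl 1 and 2 and 309 and 324 CPM in shYEATS2 1 and 2. Both shYEATS2 libraries were far above both shControl libraries. PSAT1 rose 2.64-fold (log2 fold change 1.40, SE 0.06, adjusted p = 1.5e-30, edgeR), which placed it at rank 647 of the 17058 tested genes counted from the largest rise.

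PSPH (ENSG00000146733, chr7:56011051-56051604, minus strand), the phosphatase of the last step, measured 64.5 and 65.0 CPM in shControl and 112 and 104 CPM in shYEATS2. The 2 groups did not overlap, and the gene rose 1.67-fold (log2 fold change 0.74, SE 0.07, adjusted p = 4.1e-15, edgeR). Its near-identical copy PSPHP1 measured 9.37, 9.18, 7.70 and 8.99 CPM in the same order of libraries and was not called (log2 fold change −0.18, SE 0.13, adjusted p = 0.28, edgeR). Reads that match both may be lost from both or given to either gene, and how they were counted is not given in the sources used here. The other 13 rows of pseudogenes of these enzymes held at most 13 counts in a library.

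PHGDH (ENSG00000092621, chr1:119648411-119744218, plus strand), the dehydrogenase that commits 3-phosphoglycerate to serine, measured 16.2 and 16.9 CPM in shControl and 15.7 and 13.1 CPM in shYEATS2. The shYEATS2 libraries were lower, but shYEATS2 1 lay close to the controls. The log2 fold change was −0.17 (SE 0.11, adjusted p = 0.20, edgeR), and the differences between single libraries ran from −0.37 to −0.04. The lowest count of any of the 9 genes was that of PHGDH in shYEATS2 2, 154 counts with an exact Poisson 95% interval of 131 to 180.3 that covers counting error only. Without shYEATS2 1, PHGDH was called lower (log2 fold change −0.35, SE 0.13, adjusted p = 0.03, edgeR).

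The ratio of PSAT1 to PHGDH counts within a library needs no scaling between libraries. It was 7.41 and 7.08 in shControl and 19.6 and 24.8 in shYEATS2, a 3.05-fold difference between the conditions (1.61 on the log2 scale). The exact two-sided permutation test gave p = 0.333, the smallest value that 2 libraries against 2 allow, so no ratio here could pass 0.05. The adjusted p over the 6 ratios computed was also 0.333.

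The cytosolic folate enzymes both fell. SHMT1 (ENSG00000176974, chr17:18327860-18363563, minus strand), the cytosolic serine hydroxymethyltransferase, measured 63.5 and 65.4 CPM in shControl and 47.3 and 46.3 CPM in shYEATS2. The groups were well separated, and shYEATS2 stood at 72.8% of the control level (log2 fold change −0.46, SE 0.07, adjusted p = 2.6e-07, edgeR). MTHFD1 (ENSG00000100714, chr14:64388031-64463457, plus strand) measured 111 and 109 CPM in shControl and 90.1 and 94.8 CPM in shYEATS2. It stood at 84.0% of the control level without overlap between the groups (log2 fold change −0.25, SE 0.07, adjusted p = 0.001, edgeR). With the libraries scaled by their totals alone, a setting in which the median over the tested genes was 0.13 in place of −0.01 on the log2 scale, the fall of MTHFD1 was no longer called (log2 fold change −0.12, adjusted p = 0.12, edgeR).

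All 4 mitochondrial folate enzymes rose. SHMT2 (ENSG00000182199, chr12:57229573-57234935, plus strand), which releases the one-carbon unit from serine in mitochondria, measured 90.1 and 93.1 CPM in shControl and 129 and 135 CPM in shYEATS2. The groups did not overlap, and the gene rose 1.44-fold (log2 fold change 0.52, SE 0.06, adjusted p = 2.2e-10, edgeR).

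MTHFD2 (ENSG00000065911, chr2:74186172-74217565, plus strand), the mitochondrial methylenetetrahydrofolate dehydrogenase and cyclohydrolase, which is abundant in embryonic and tumor tissue and low in most adult tissues, showed the largest rise of the 9. It measured 88.5 and 88.6 CPM in shControl and 259 and 274 CPM in shYEATS2. The controls were nearly equal and both shYEATS2 libraries far above them, a 3.01-fold rise (log2 fold change 1.59, SE 0.06, adjusted p = 5.8e-33, edgeR) at rank 513 from the largest rise. SLC4A5, a gene on the opposite strand that shares 1324 exonic bases with MTHFD2, was at most 0.42 CPM in any library.

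MTHFD1L (ENSG00000120254, chr6:150865679-151101887, plus strand), the mitochondrial synthetase that frees formate, measured 36.1 and 38.4 CPM in shControl and 51.9 and 47.3 CPM in shYEATS2. It rose 1.34-fold without overlap of the groups (log2 fold change 0.42, SE 0.08, adjusted p = 5.6e-06, edgeR), the smallest rise of the 6 called higher. ALDH1L2 (ENSG00000136010, chr12:105019784-105107643, minus strand), the mitochondrial 10-formyltetrahydrofolate dehydrogenase, measured 28.7 and 29.2 CPM in shControl and 71.3 and 75.0 CPM in shYEATS2. It rose 2.52-fold, again with the groups apart (log2 fold change 1.33, SE 0.08, adjusted p = 1.6e-24, edgeR). A change of at least 2-fold was thus reached by 3 of the 9 genes, MTHFD2, PSAT1 and ALDH1L2.

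**Figure D2:**
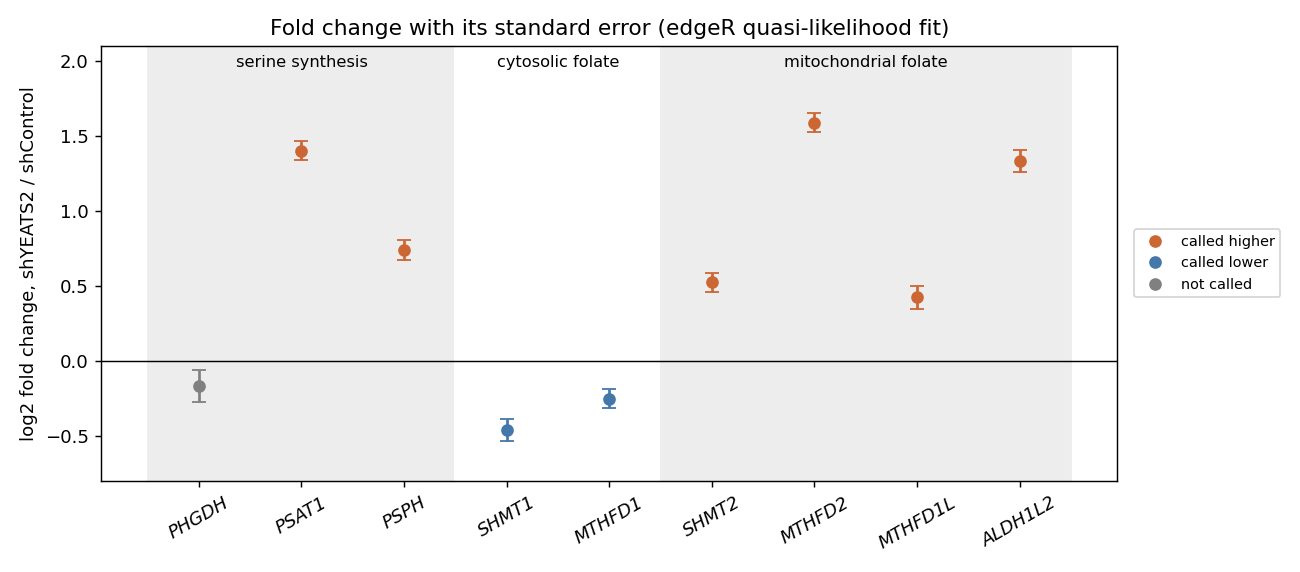
Log2 fold change of the 9 enzymes between shYEATS2 and shControl (points), with called genes in color and the gene not called in grey. Bars are its standard error, worked back from the F statistic of edgeR's quasi-likelihood test. The mitochondrial folate enzymes lie between 0.42 and 1.59 and the cytosolic ones at −0.46 and −0.25.

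The strand setting of the read counting is not given in the sources used here. Genes on the opposite strand share exonic bases with 5 of the 9 enzymes in GENCODE, namely MTHFD1, SHMT1, SHMT2, MTHFD2 and ALDH1L2. Without strand such reads could not be told apart. Of these genes, SMCR8 (197 bases shared with SHMT1) measured 54.1 and 49.9 CPM in shControl and 67.1 and 63.8 CPM in shYEATS2. WASHC4 (131 bases, ALDH1L2) measured 89.2 and 94.6 CPM, then 74.3 and 79.4 CPM. ZBTB25 (178 bases, MTHFD1) was at most 13.2 CPM and NDUFA4L2 (33 bases, SHMT2) at most 2.13 CPM in any library. Apart from SLC4A5, levels of the other overlapping genes, among them a noncoding gene sharing 1556 bases with MTHFD1, are not reported here. On the same strand, MIR6778 shares 73 bases with SHMT1 and no other exonic overlap was found.

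Each step that has a cytosolic and a mitochondrial enzyme was compared within a library. The ratio of SHMT2 to SHMT1 counts was 1.42 in both shControl libraries and 2.73 and 2.91 in shYEATS2, a 1.98-fold difference (0.99 on the log2 scale). For MTHFD1L to MTHFD1, both of which carry a formyltetrahydrofolate synthetase, the ratio was 0.327 and 0.353 in shControl and 0.576 and 0.50 in shYEATS2, a 1.58-fold difference (0.66 on the log2 scale). MTHFD2 to MTHFD1, both of which carry a dehydrogenase, moved furthest, from 0.801 and 0.814 in shControl to 2.87 and 2.89 in shYEATS2, a 3.57-fold difference (1.84 on the log2 scale). The conditions did not overlap in any of these ratios, and each had the same exact permutation p = 0.333. Each of them sets an enzyme called higher over an enzyme called lower, so the separation restates those calls.

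Paralogs outside the set gave a further comparison, with ratios chosen after the values had been seen. ALDH1L1, the cytosolic counterpart of ALDH1L2, measured 49.4 CPM in both shControl libraries and 50.3 and 48.4 CPM in shYEATS2, and the groups overlapped (log2 fold change 0.00, SE 0.07, adjusted p = 0.98, edgeR). The ratio of ALDH1L2 to ALDH1L1 counts went from 0.580 and 0.592 to 1.42 and 1.55. MTHFD2L, a second mitochondrial enzyme with the activity of MTHFD2, measured 22.6 and 22.7 CPM in shControl and 22.4 and 25.1 CPM in shYEATS2, again with overlap (log2 fold change 0.05, SE 0.09, adjusted p = 0.68, edgeR). MTHFD2 to MTHFD2L went from 3.91 in both shControl libraries to 11.6 and 10.9 in shYEATS2, a 2.87-fold difference.

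**Figure D3:**
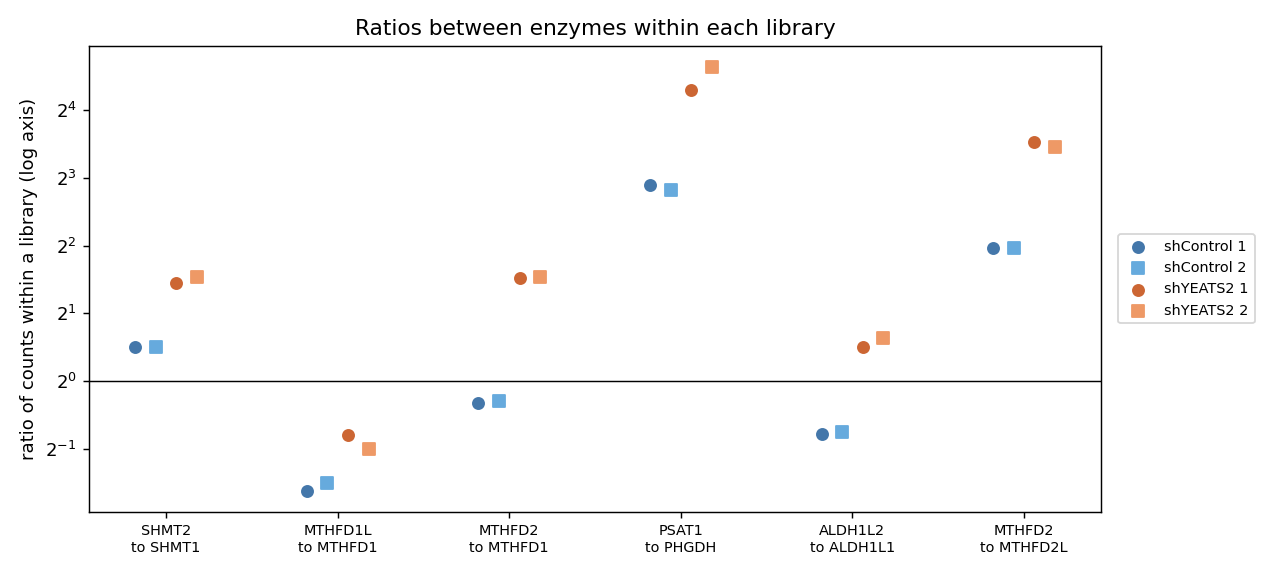
Ratio of the counts of 2 enzymes within each library (log axis, base 2) for 6 pairs, with circles for library 1 and squares for library 2 of each condition. In every pair both shYEATS2 libraries lie above both shControl libraries, for example 2.87 and 2.89 against 0.801 and 0.814 for MTHFD2 to MTHFD1. Every pair sets a gene called higher over a gene called lower or not called, so the separation restates those calls. The pairs with ALDH1L1 and MTHFD2L were chosen after the values had been seen.

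To compare levels between genes, CPM were divided by the length of the canonical transcript. In shControl the order of the levels per kilobase was PSAT1 (54.2 ± 0.155, SD, n = 2), SHMT2 (42.5 ± 0.973), MTHFD1 (34.8 ± 0.362), PSPH (32.8 ± 0.201), SHMT1 (25.5 ± 0.524), MTHFD2 (20.1 ± 0.0212), MTHFD1L (10.8 ± 0.468), PHGDH (8.85 ± 0.256) and ALDH1L2 (3.90 ± 0.0554). In shYEATS2 it was PSAT1 (143.5 ± 4.67), SHMT2 (61.1 ± 1.91), MTHFD2 (60.5 ± 2.45), PSPH (54.6 ± 2.96), MTHFD1 (29.3 ± 1.04), SHMT1 (18.5 ± 0.269), MTHFD1L (14.4 ± 0.927), ALDH1L2 (9.85 ± 0.354) and PHGDH (7.72 ± 1.02). By this length MTHFD2 moved from below SHMT1 and MTHFD1 to the level of SHMT2, from which it did not differ beyond the spread of the libraries in shYEATS2. That placing did not hold with the length of all annotated exons. By that length MTHFD2 (7.74 CPM per kilobase) already stood above MTHFD1 (6.32) in shControl, and in shYEATS2 it stood at 23.3 against 28.7 for SHMT2. PHGDH was then the lowest in both conditions (1.80 and 1.57), below ALDH1L2 (3.05 and 7.71).

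The 4 mitochondrial enzymes made up 55.9% and 56.5% of the summed level per kilobase of the 6 folate enzymes in shControl and 75.2% and 75.4% in shYEATS2 (56.2% ± 0.418 against 75.3% ± 0.182, SD, n = 2 each). By the length of all exons the shares were 71.0% and 71.4% in shControl and 85.2% and 85.5% in shYEATS2. The share was higher in shYEATS2 by both lengths, and the libraries of a condition lay within 1 percentage point of each other.

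Known activators of these genes were measured in the same libraries. ATF4, the transcription factor of the amino-acid response, rose from 189 and 185 CPM in shControl to 407 and 382 CPM in shYEATS2 (log2 fold change 1.08, SE 0.06, adjusted p = 5.6e-25, edgeR). MYC rose from 70.4 CPM in both shControl libraries to 159 and 133 CPM (log2 fold change 1.06, SE 0.07, adjusted p = 1.2e-19, edgeR). NFE2L2, which encodes the oxidative stress factor NRF2, rose from 101 and 109 CPM to 139.7 and 149.5 CPM (log2 fold change 0.46, SE 0.06, adjusted p = 1.2e-08, edgeR). The mRNA of a factor is not its activity, and the part of these factors in the changes of the enzymes was not tested.

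None of the 14 genes of the ATF4 and amino-acid response is a member of the set. Of these, 13 were called higher and 0 lower, against 22.6% and 23.6% of all tested genes. This list and those below were chosen with earlier results of these data known, so their counts are descriptive. The median log2 fold change was 1.51, and DESeq2 also called 13 higher and 0 lower. The largest rises were those of CHAC1, a glutathione-degrading enzyme (log2 fold change 2.97, SE 0.13), STC2, a secreted glycoprotein (2.54, SE 0.06), and the transcription factor ATF3 (2.48, SE 0.10). VLDLR did not pass the test (0.10, SE 0.11). ATF4 itself is counted in this list. ASNS, also called higher, shares 49.3% of its exonic bases with another gene on its strand.

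Among carriers of serine, glycine and folate, 7 of 11 tested were called higher and 1 lower, against 22.6% and 23.6% of all tested genes. The median log2 fold change was 0.36, and FOLR1 was below the filter. SLC25A32, among those called higher, shares 69.7% of its exonic bases with another gene on its strand. SLC1A4, a neutral amino acid transporter that carries serine, measured 19.7 and 19.8 CPM in shControl and 83.8 and 80.7 CPM in shYEATS2 (log2 fold change 2.06, SE 0.08). The glycine transporter SLC6A9 measured 8.22 and 8.28 CPM in shControl and 30.8 and 23.4 CPM in shYEATS2 (log2 fold change 1.74, SE 0.11). SLC38A1, a glutamine and neutral amino acid transporter, rose less (log2 fold change 0.54, SE 0.06). SFXN1, which carries serine into mitochondria, went the other way, from 94.7 and 103.7 CPM in shControl to 64.6 and 63.7 CPM in shYEATS2 (log2 fold change −0.63, SE 0.07, adjusted p = 6e-12, edgeR).

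The other enzymes of the folate cycle showed no common direction, with a median log2 fold change of −0.01. Of 10 tested, 2 were higher and 2 lower (0 and 2 by DESeq2), near the 22.6% and 23.6% of all tested genes. Thymidylate synthase, TYMS, fell (log2 fold change −0.24, SE 0.06, adjusted p = 0.0016, edgeR). Among the genes of the glycine cleavage system, 1 of 3 tested was higher and 1 lower. The gene called higher, GLDC (log2 fold change 2.16, SE 0.58), held 10 and 4 counts in shControl and 18 and 10 in shYEATS2. GLDC was under 1 CPM in every library. DLD, an enzyme that several mitochondrial complexes share, had a log2 fold change of −0.22 (SE 0.06). MTHFS and AMT were below the filter and share exonic bases with other genes on their strand.

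In the pathways that draw on serine and one-carbon units, genes were called in both directions. Over all tested genes 22.6% were called higher and 23.6% lower, and the counts below were not tested against those shares. In serine and glycine use 3 of 8 tested were higher and 2 lower (3 and 1 by DESeq2), with GCAT, which acts in threonine breakdown to glycine, at 0.65 (SE 0.11) and glutathione synthetase, GSS, at 0.44 (SE 0.07) on the log2 scale. GCLC, the catalytic subunit of glutamate-cysteine ligase, was at −0.31 (SE 0.06) and SPTLC2, of sphingolipid synthesis, at −0.24 (SE 0.10, not called by DESeq2). In the methionine cycle and transsulfuration 3 of 9 tested were higher and 2 lower (2 and 2 by DESeq2, which did not call MTAP, adjusted p = 0.065), with 5 genes below the filter. MAT2A, which makes S-adenosylmethionine, had a log2 fold change of 0.48 (SE 0.06) and MTAP of 0.19 (SE 0.07), while the S-adenosylhomocysteine hydrolase AHCY was at −0.44 (SE 0.06) and its relative AHCYL1 at −0.57 (SE 0.07).

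In purine synthesis 3 of 12 tested were higher and 2 lower, against 22.6% and 23.6% of all tested genes. The median log2 fold change was −0.06. DESeq2 called 2 higher and 1 lower and did not call GART (adjusted p = 0.074) or PFAS (adjusted p = 0.072). Of the enzymes that consume formyltetrahydrofolate, ATIC had a log2 fold change of 0.43 (SE 0.07) and GART of 0.15 (SE 0.06). PPAT, which commits the pathway, was at 0.43 (SE 0.07), PRPS2 at −0.47 (SE 0.08) and PFAS at −0.24 (SE 0.08).

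DNA replication genes moved mostly downward, with a median log2 fold change of −0.51. Of 20 tested, 18 were lower and 1 higher (17 and 1 by DESeq2), against 23.6% and 22.6% of all tested genes. The helicase subunits MCM5 (−0.97, SE 0.07), MCM2 (−0.81, SE 0.07) and MCM3 (−0.75, SE 0.06) fell furthest, and thymidine kinase 1, TK1, rose (0.25, SE 0.07). TYMS, which supplies thymidylate for replication, was on the lower side with them.

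Scaling by library totals alone changed some of these counts. The falls of TYMS, DLD, SPTLC2 and PFAS were then not called, and the medians of the other folate enzymes (0.12), glycine cleavage (0.07) and purine synthesis (0.08) turned positive. The ATF4 list kept 13 of 14 higher, carriers had 9 of 11 higher, and DNA replication had 15 of 20 lower and 2 higher.

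**Figure D4:**
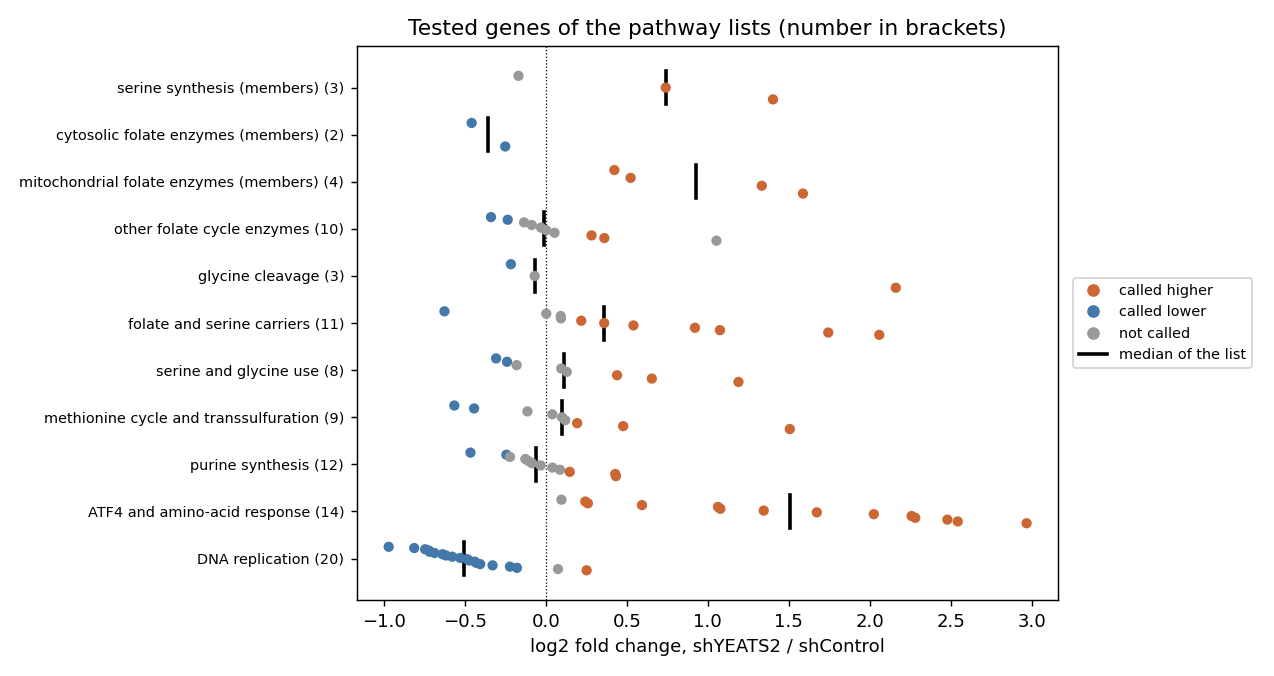
Log2 fold change between shYEATS2 and shControl of each tested gene in the pathway lists, 1 point per gene, with the number of tested genes in brackets and a bar at the median of the list. The mitochondrial folate enzymes (median 0.93) and the ATF4 list (median 1.51) lie to the right, the cytosolic folate enzymes (median −0.35) and DNA replication (median −0.51) to the left, and the other folate enzymes center near 0.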

How the data were processed

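RNA-seq libraries (4, 2 shControl and 2 shYEATS2) were analysed from BICR10 cells. The deposited values are raw read counts per Ensembl gene, made by the authors from 150 bp paired-end reads of a stranded poly(A) library with FastQC, STAR and HTSeq on GRCh38, per the submitters' processing notes. Not given in the sources used here are STAR's version, the annotation release and whether counting used strand. Reads outside genes or ambiguous (12.4% to 13.4% per library together) were left out.

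The quasi-likelihood test of edgeR 4.0.16 (R 4.3.3; robust glmQLFit, then glmQLFTest) was run on the 17058 genes passing filterByExpr, with TMM scaling and group as the only term. Calls required a p under 0.05 after Benjamini-Hochberg adjustment over all tested genes. CPM are TMM-normalized and each ± is the SD of 2 libraries. Each SE is the absolute log2 fold change divided by the square root of the test's F statistic. Total gene counts of 11334133 to 47297970 limit precision most in shYEATS2 2. Replicates differed by more than counting noise (chi-square per degree of freedom 5.95 in shControl and 5.39 in shYEATS2). DESeq2 1.42.0, limma-voom (limma 3.58.1), other scalings, filters and thresholds, thinned counts, a replicate block and leaving out each library were the alternatives, and the scripts were tested on simulated data. Within-library ratios were compared with exact permutation tests. Positions came from GENCODE release 44, which held 60295 of the 60623 identifiers.

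Genes named were the 9 enzymes, YEATS2, ATF4, MYC, NFE2L2, MTHFD2L, ALDH1L1 and TYMS, and from each other list at most the 3 largest rises and the 3 largest falls that were called, averaged 10 CPM or more and had no overlap between the groups. PSPHP1, SLC4A5, SMCR8, WASHC4, ZBTB25, NDUFA4L2, VLDLR, GLDC, MTHFS, AMT, FOLR1, ASNS, SLC25A32, KRT17, TP63, SFN, CDH1 and CD3E were named outside this rule after their values were seen. Some genes that the rule names are not reported here. The enzymes and gene lists were chosen with earlier results of these data known.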

Additional observations from a re-analysis of the deposited data

How the results depend on the processing

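With DESeq2 size factors, upper quartile factors, no filter, at least 10 counts in every library, DESeq2, limma-voom, thinned counts or an adjusted p under 0.01, 6 enzymes were higher and 2 lower. A minimum of 2-fold left 3 higher, 0 lower and 1653 genes in all, against 7876. Library totals alone left 1 lower (SHMT1) and shifted the split over all genes to 5441 higher and 2567 lower, from 3857 and 4019. Leaving out each library gave 6 to 6 higher, 2 to 3 lower (PHGDH in addition without shYEATS2 1) and 5898 to 7502 genes in all. The lone library of a group is then assumed to vary like the other group. The log2 ratio of MTHFD1L to MTHFD1 ranged from 0.56 to 0.76 and that of PSAT1 to PHGDH from 1.44 to 1.77. No direction reversed among the 9 enzymes and 4 ratios under these settings.

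The labels link same-numbered libraries only by their number, and the correlation of their deviations was −0.018. With the replicate number as a block, 8012 genes were called in all, 6 enzymes were higher and 2 lower, and the block changed no call among the 9.

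Depth and condition cannot be told apart, and groups of 2 libraries allow no outlier test.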
